A study of Mus musculus with 75 samples.

Results

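The collagen IV family comprised 6 genes, Col4a1 to Col4a6, taken by symbol from the 55536 genes counted in bulk lung RNA of BLEO-IPF mice. The rule uses names only and no measured value. RNA was extracted from the right lung's inferior lobe in 75 male C57BL/6JRj mice, and each mouse gave 1 polyA library. BLEO-IPF mice, aged 12 to 14 weeks at the start, had been instilled once into the trachea with bleomycin (BLEO), a DNA-damaging agent that injures the alveolar epithelium, and the labels name no other treatment and no mutant allele. They were terminated on day 7 (n = 10), day 14, 21, 28 or 35 (n = 12 each) or day 42 (n = 7). Only mice that had lost 5 to 17% of their body weight by day 6 were kept, so the BLEO groups do not cover milder or more severe responders. The 10 controls (CTRL) are labelled saline, whereas the treatment text calls the controls untreated mice and gives no age for them.

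Collagen IV is the network-forming collagen of basement membranes, the sheets on which alveolar epithelium and capillary endothelium rest. Its α chains coil into heterotrimers inside the cell and join into a network outside it. The α1α1α2 trimer occurs in basement membranes throughout the body and is made by endothelial, mesenchymal and epithelial cells, the α3α4α5 trimer in a narrower set of tissues that includes the alveolus and the renal glomerulus, and the α5α5α6 trimer around smooth muscle and under some epithelia. In mouse as in human, the 6 genes lie as pairs that start next to each other and are transcribed in opposite directions. In bulk tissue, fewer cells of a type and less RNA per cell cannot be told apart.

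The pairs differed in how close their starts lie, and the DNA between the starts is shown because the partners are compared with each other throughout. In GRCm38, Col4a1 (ENSMUSG00000031502) spans chr8:11198423-11312826 on the minus strand and Col4a2 (ENSMUSG00000031503) spans chr8:11312805-11449287 on the plus strand. Their annotated 5′ ends overlap by 22 bases, so reads from those bases could be counted for either gene if strand was not used. Col4a4 (ENSMUSG00000067158, chr1:82448423-82586849, minus strand) and Col4a3 (ENSMUSG00000079465, chr1:82586921-82722059, plus strand) are separated by 71 bases. Col4a6 (ENSMUSG00000031273, chrX:141165403-141474076, minus strand) and Col4a5 (ENSMUSG00000031274, chrX:141475385-141689234, plus strand) are separated by 1308 bases. Other genes annotated within the 6 loci held at most 0.17% as many counts as the collagen IV gene they overlap.

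The sequences are from RefSeq's table of start-site windows (GRCm38.p6), which matched 5 of the 6 genes, all but Col4a3. Capitals mark the 22 shared bases in the first sequence, which is on the plus strand, and in the others any GC box, searched as GGGCGG on both strands, and any CCAAT box, searched by its name's letters likewise. The second is the whole stretch between Col4a4 and Col4a3 on the plus strand (chr1:82586850-82586920). The third is the 250 bases before Col4a6, read on the minus strand (chrX:141474077-141474326), and the fourth the 216 bases of the Col4a5 window before that gene (chrX:141475169-141475384).
Col4a1 and Col4a2 shared start, chr8:11312801-11312830: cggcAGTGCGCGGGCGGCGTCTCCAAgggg
Between Col4a4 and Col4a3: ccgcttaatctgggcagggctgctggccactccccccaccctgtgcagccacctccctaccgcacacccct
Upstream of Col4a6: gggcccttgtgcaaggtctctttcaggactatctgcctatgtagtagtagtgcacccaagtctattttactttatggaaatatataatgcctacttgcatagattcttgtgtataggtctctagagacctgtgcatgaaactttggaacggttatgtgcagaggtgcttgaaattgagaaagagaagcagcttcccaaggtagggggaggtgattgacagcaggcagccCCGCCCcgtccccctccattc
Upstream of Col4a5: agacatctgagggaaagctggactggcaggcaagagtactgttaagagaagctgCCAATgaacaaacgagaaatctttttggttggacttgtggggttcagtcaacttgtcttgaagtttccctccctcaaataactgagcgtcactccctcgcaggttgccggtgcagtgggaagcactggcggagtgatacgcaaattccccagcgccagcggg

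The 300-base windows of Col4a1 and Col4a2 were rich in G and C (74% and 73.7%, against a median of 52.7% over 32851 windows), that of Col4a4 less so (63.3%), and those of Col4a5 (52.7%) and Col4a6 (48.3%) were near the median. The GC box occurred 3 times in the Col4a2 window and once each in those of Col4a1, Col4a5 and Col4a6, beside 35.7% of all windows with a match. The CCAAT box occurred once each in the Col4a1, Col4a2 and Col4a5 windows, beside 37.4% of all windows. The Col4a1 and Col4a2 windows overlap, so they share sites. The TATA box, searched as TATAAA on both strands (13.6% of all windows), had no match in the 5 windows. These are matches of letters and not sites of binding.

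All 6 genes passed the filter on low counts, in libraries of 9240291 to 14665247 counts. Counts per mouse ran from 7724 to 58798 for Col4a1 and from 108 to 539 for Col4a6, the lowest gene, so the fold changes of Col4a6 rest on fewer reads. Levels are given as CPM (library-size-normalized counts) after trimmed-mean scaling, and as RPKM (the same divided by exon length in kilobases) where genes are set side by side. In 8 BLEO-IPF mice at least 1 collagen IV gene lay more than 0.75 from its group mean in log2 CPM, and results that changed on leaving out 1 of them are given with the value without it. Day 14 replicates 2 and 3 and day 28 replicate 5 were low in Col4a3, Col4a4, Col4a5 and Col4a6 together. Day 28 replicates 1 and 2 were high in Col4a1 and Col4a2, and day 21 replicate 8 and day 28 replicate 10 were low in both.

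In CTRL lungs, RPKM was 138 ± 20.2 for Col4a1 and 130.5 ± 19.5 for Col4a2 (mean ± SD, n = 10), a difference below the SD. The level was 32.1 ± 4.52 RPKM for Col4a3, 24.3 ± 2.56 RPKM for Col4a5, 17.5 ± 2.17 RPKM for Col4a4 and 4.62 ± 0.623 RPKM for Col4a6. The pair of the ubiquitous trimer thus held 77.3 ± 1.38% of the summed collagen IV RPKM, the Col4a3 to Col4a5 group 21.4 ± 1.31% and Col4a6 1.34 ± 0.189%. Within a group the chains varied little in CTRL (coefficient of variation 10.5% for Col4a5, the lowest, to 14.98% for Col4a2), and more on day 28 (19.5 to 37.3%).

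**Figure D1:**
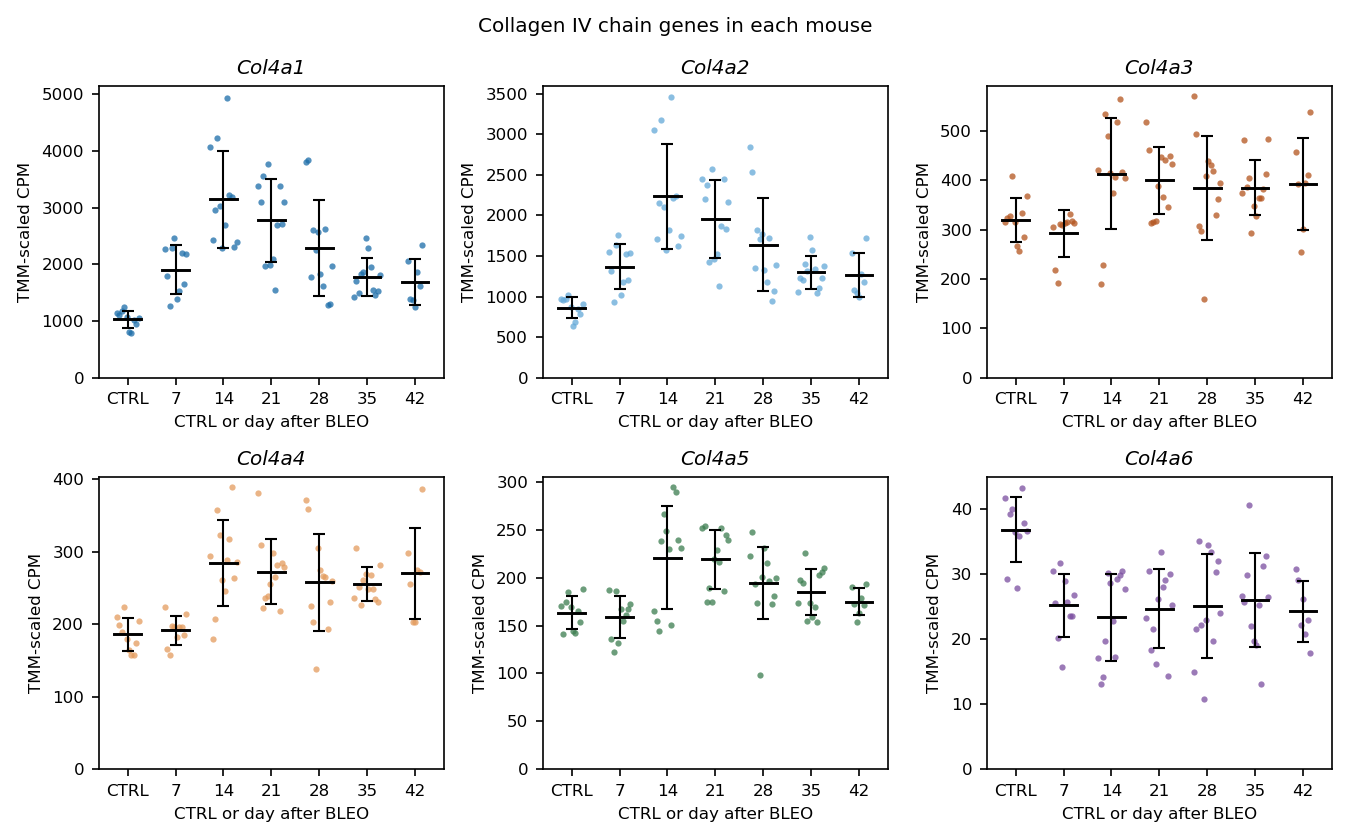
Level of each collagen IV gene (trimmed-mean scaled CPM, linear axis from 0) in each mouse of CTRL and of the 6 days after BLEO. Points are mice, bars the group mean and whiskers the SD. Every BLEO-IPF mouse lies above every CTRL mouse for Col4a1, on day 42 by the narrowest margin (lowest 1248.7 CPM against a highest CTRL value of 1248.4 CPM), whereas Col4a6 is shifted down on every day with overlap.

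Against CTRL, the family split into genes that were higher on every day, genes first called higher on day 14, and 1 gene that was lower throughout. Of the genes first called on day 14, Col4a4 alone was called on all later days. On day 7, 2 of 6 genes were higher (24.8% of the 16221 genes tested) and 1 lower (21.0%), by edgeR's quasi-likelihood test at an adjusted p under 0.05. On day 14 the counts were 5 higher (32.4% of all genes) and 1 lower (29.9%), and on day 21 again 5 higher (28.3%) and 1 lower (25.8%). Day 28 gave 4 higher (24.1%) and 1 lower (19.2%). On day 35, 3 were higher (16.9%) and 1 lower (13.1%), and on day 42, 3 higher (13.7%) and 1 lower (11.0%). The median log2 fold change (log2FC) of the 6 genes was 0.53 on day 14 and 0.42 on day 42, beside 0.01 over all genes on both days. With 6 genes and a large part of the transcriptome called in each direction at the peak, the counts alone do not set the family apart, and the results rest on the individual genes.

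**Figure D2:**
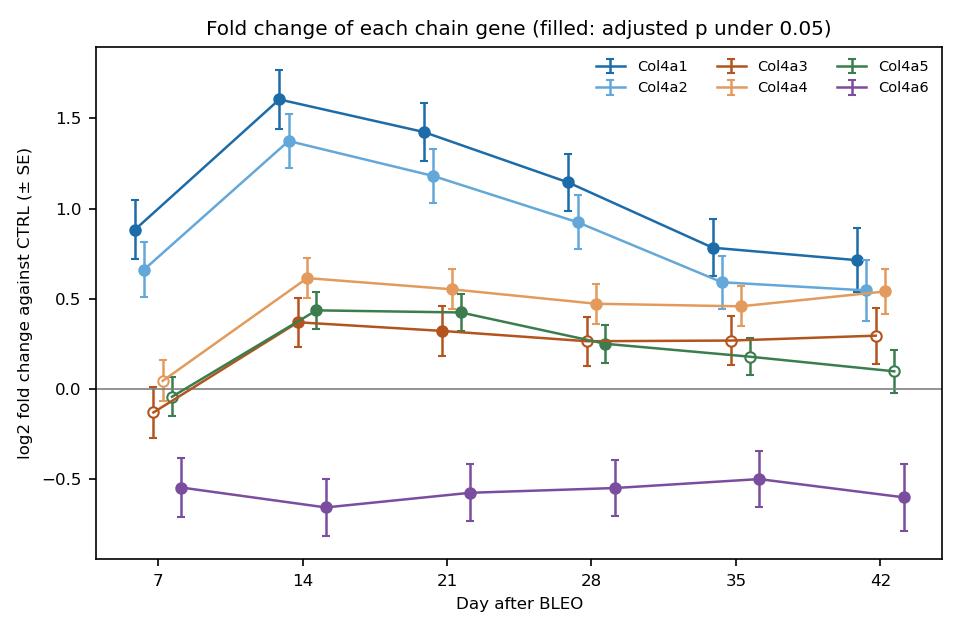
log2 fold change of each collagen IV gene against CTRL (y axis, ± SE) by day after BLEO (x axis, slightly offset by gene). Filled points passed an adjusted p under 0.05. Col4a1 and Col4a2 are highest on day 14, Col4a4 stays between 0.46 and 0.61 from day 14 on, and Col4a6 lies between -0.66 and -0.50 on every day.

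Col4a1 and Col4a2, the chains of the ubiquitous α1α1α2 trimer, rose on all 6 days. Col4a1 ranged from 790.0 to 1248 CPM in CTRL (median 1062 CPM), from 1256 to 2468 CPM on day 7 (median 1994 CPM) and from 2280.1 to 4936 CPM on day 14 (median 2990.5 CPM). Every day 7 and day 14 mouse was above the highest CTRL mouse, and the day 7 and day 14 ranges overlapped. Mean Col4a1 was 1033 ± 151 CPM in CTRL and 3142 ± 854 CPM on day 14, a log2FC of 1.61 ± 0.16 (SE, adjusted p = 2.71e-13), or 3.04-fold. It was lower at the later times, with medians of 2904 CPM on day 21 (range 1539 to 3774 CPM), 2113 CPM on day 28 (1273 to 3832 CPM), 1757 CPM on day 35 (1417 to 2463 CPM) and 1609.5 CPM on day 42 (1249 to 2337 CPM). The log2FC fell from 1.42 on day 21 to 1.15, 0.78 and 0.71 on days 28, 35 and 42, where it was still called (adjusted p = 0.00189 on day 42). In the order of group means, each neighbour from day 14 down to day 42 differed by less than the larger SD, and the step from day 42 (1694 ± 404 CPM) to CTRL exceeded it.

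Col4a2 followed the same course at smaller fold changes. It ranged from 631 to 1022 CPM in CTRL (median 886 CPM), from 937 to 1765 CPM on day 7 (median 1424 CPM), from 1571 to 3456 CPM on day 14 (median 2129 CPM) and from 998 to 1720.0 CPM on day 42 (median 1177 CPM). On day 7, 8 of 10 mice exceeded the highest CTRL mouse, on day 14 all 12 did, and on day 42 6 of 7. The log2FC was 0.66 ± 0.15 on day 7 (adjusted p = 0.000297), 1.37 ± 0.15 on day 14 (adjusted p = 4.98e-12), then 1.18, 0.92 and 0.59 at the next sampling days, and 0.55 ± 0.17 on day 42 (adjusted p = 0.0123).

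The chains of the α3α4α5 trimer were not called on day 7, and rose on day 14. Col4a3 ranged from 258 to 408 CPM in CTRL (median 319 CPM), from 192 to 332 CPM on day 7 (median 312 CPM) and from 189 to 565 CPM on day 14 (median 415 CPM). The groups overlapped on each day, and on day 14 7 of 12 mice were above the highest CTRL mouse and 2 below the lowest. The log2FC was -0.13 on day 7 (95% interval -0.41 to 0.15), 0.37 ± 0.14 on day 14 (adjusted p = 0.0159) and 0.32 ± 0.14 on day 21 (adjusted p = 0.0409). The day 21 call was lost under 4 alternatives, with an adjusted p of 0.0534 by DESeq2. Col4a3 was not called on days 28, 35 and 42, with log2FC of 0.26 to 0.30 and a 95% interval of -0.01 to 0.60 on day 42, an interval that holds the day 14 value. Without day 28 replicate 5, in which Col4a3 was at 159 CPM, the day 28 log2FC was 0.34 (adjusted p = 0.0257).

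Col4a4, its neighbour on chromosome 1, was higher from day 14 to day 42. It ranged from 158 to 224 CPM in CTRL (median 184 CPM), from 158 to 224 CPM on day 7 (median 196 CPM), from 180.1 to 390 CPM on day 14 (median 287 CPM) and from 202 to 386 CPM on day 42 (median 271 CPM). Day 7 covered the CTRL range, 10 of 12 day 14 mice and 5 of 7 day 42 mice lay above it, and on day 35 all 12 mice did (226 to 305 CPM, median 249.8 CPM). The log2FC was 0.04 on day 7 (95% interval -0.18 to 0.27), 0.61 ± 0.11 on day 14 (adjusted p = 2.14e-06), 0.46 on day 35 and 0.54 ± 0.12 on day 42 (adjusted p = 0.000832). Day 35 and day 7 were the neighbours in the order of group means that differed by more than the larger SD.

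Col4a5, which enters both the α3α4α5 and the α5α5α6 trimer, was higher on days 14 to 28. It ranged from 142 to 188 CPM in CTRL (median 167 CPM), from 123 to 187 CPM on day 7 (median 164 CPM), from 144 to 295 CPM on day 14 (median 235 CPM) and from 154 to 193 CPM on day 42 (median 173 CPM). On day 14 8 of 12 mice were above the CTRL range and on day 42 2 of 7. The log2FC was -0.04 on day 7 (95% interval -0.26 to 0.17), 0.44 ± 0.10 on day 14 (adjusted p = 0.000241), 0.42 on day 21 and 0.25 ± 0.10 on day 28 (adjusted p = 0.0449). The day 28 call was lost under 6 alternatives (adjusted p = 0.0529 by DESeq2), without day 28 replicate 1 (adjusted p = 0.0735) or replicate 2 (adjusted p = 0.109), and without day 21 replicate 8 (adjusted p = 0.0543) or day 35 replicate 9 (adjusted p = 0.0514). On days 35 and 42 the log2FC was 0.18 and 0.10, with a 95% interval of -0.14 to 0.33 on day 42.

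Col4a6, the lowest gene of the family and the partner of Col4a5 on chromosome X, fell on all 6 days. It ranged from 27.9 to 43.3 CPM in CTRL (median 37.3 CPM), from 15.7 to 31.7 CPM on day 7 (median 25.6 CPM), from 13.1 to 30.5 CPM on day 14 (median 25.2 CPM) and from 17.9 to 30.8 CPM on day 42 (median 22.9 CPM). The groups overlapped, with 7 of 10, 7 of 12 and 5 of 7 mice below the lowest CTRL mouse on these days. The log2FC was -0.55 ± 0.16 on day 7 (adjusted p = 0.00483), -0.66 ± 0.16 on day 14 (adjusted p = 0.000236), -0.58 to -0.50 on the days from 21 to 35, and -0.60 ± 0.18 on day 42 (adjusted p = 0.0123). All neighbouring BLEO groups in the order of means differed by less than the SD, and the step from CTRL (36.8 ± 4.96 CPM) to day 35 (26.1 ± 7.20 CPM) exceeded it.

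Between successive BLEO days, the family changed from day 7 to day 14 and later differences fell short of the threshold. On day 14 against day 7, 5 of 6 genes were higher (9.48% of all genes were higher and 7.55% lower). The log2FC was 0.72 ± 0.16 for Col4a1 (adjusted p = 0.00086), 0.71 ± 0.15 for Col4a2 (adjusted p = 0.000514), 0.50 ± 0.14 for Col4a3 (adjusted p = 0.00745), 0.57 ± 0.11 for Col4a4 (adjusted p = 0.000218) and 0.48 ± 0.10 for Col4a5 (adjusted p = 0.000872). Col4a6 had a log2FC of -0.11 with a 95% interval of -0.42 to 0.20. Over this week 5 genes rose, while Col4a1 and Col4a2 had also risen before it.

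By edgeR, 0 of 6 genes were called on day 21 against day 14 (1.03% of all genes), on day 28 against day 21 (0.727%), on day 35 against day 28 (1.27%) and on day 42 against day 35 (0.0% of all genes, with 957 of 16221 at an unadjusted p under 0.05). At an unadjusted p under 0.05, 2 genes passed on day 35 against day 28, Col4a1 (log2FC -0.36) and Col4a2 (log2FC -0.33), and 0 in the other 3 comparisons, and DESeq2 likewise called 0 of 6 in each. Over the longer step from day 14 to day 42, 3 of 6 genes were lower (18.8% of all genes were lower and 15.2% higher). The log2FC was -0.89 ± 0.18 for Col4a1 (adjusted p = 8.01e-05), -0.83 ± 0.17 for Col4a2 (adjusted p = 9.39e-05) and -0.34 ± 0.12 for Col4a5 (adjusted p = 0.0192, or 0.0744 in a fit of the 2 groups alone). For Col4a3 it was -0.07 (95% interval -0.37 to 0.22), for Col4a4 -0.07 (-0.31 to 0.16) and for Col4a6 0.06 (-0.29 to 0.40).

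Ratios of counts within each mouse compared the chains directly, free of library scaling. They were formed from counts, so their level also reflects gene length, and only their difference between groups is read. Geometric means are given, and p-values are two-sided permutation tests of the mean log2 ratio (100000 resamples, exact on day 42), adjusted over the 30 tests of 5 ratios on 6 days. The smallest unadjusted p these resamples give is 2e-05.

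**Figure D3:**
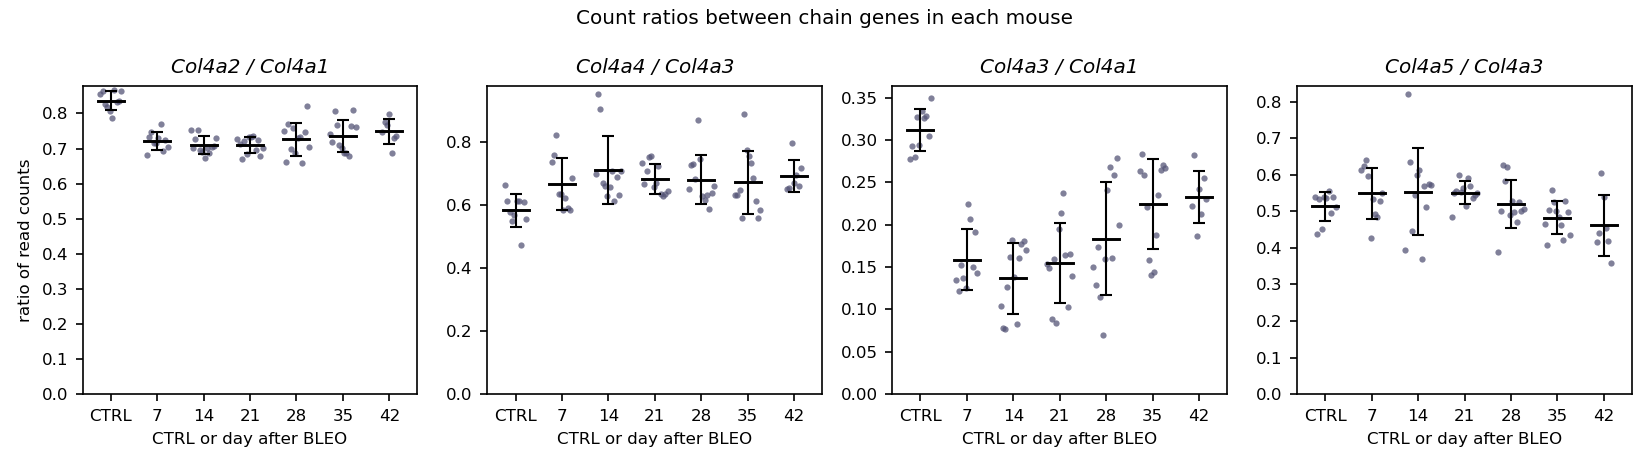
Ratio of read counts of 4 pairs of collagen IV genes in each mouse (linear axes from 0) in CTRL and on each day after BLEO. Points are mice, bars the mean and whiskers the SD of the ratios. Col4a3 over Col4a1 is lowest on day 14, where every mouse is below every CTRL mouse, and Col4a2 over Col4a1 and Col4a4 over Col4a3 shift by less and in opposite directions.

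The minor network's Col4a3 fell relative to Col4a1 on every day. The ratio was 0.311 in CTRL (0.278 to 0.35), 0.155 on day 7 (0.122 to 0.224), 0.130 on day 14 (0.0771 to 0.182) and 0.231 on day 42 (0.187 to 0.283). All day 7, 14 and 21 mice were below the lowest CTRL mouse, as were 11 of 12 on days 28 and 35 and 6 of 7 on day 42. On the log2 scale the difference from CTRL was -1.26 on day 14 and shrank to -0.51 by day 35 (adjusted permutation p = 5e-05 on each of the first 5 days), and was -0.42 on day 42 (exact permutation, adjusted p = 0.000463). Col4a5 over Col4a1 was also lower on every day, going from 0.159 in CTRL to 0.0704 on day 14 and 0.105 on day 42 (difference -0.59, exact permutation, adjusted p = 0.000325).

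Col4a1 with Col4a2, and Col4a3 with Col4a4, changed by unequal amounts within each pair, and no ratio was formed for Col4a5 with Col4a6. Col4a2 over Col4a1 was 0.836 in CTRL (0.787 to 0.868), 0.710 on day 14 (0.674 to 0.754) and 0.748 on day 42 (0.688 to 0.799). All day 7, 14 and 21 mice lay below the lowest CTRL mouse. The difference was -0.24 on day 14 (adjusted permutation p = 5e-05) and -0.16 on day 42 (exact permutation, adjusted p = 0.000325). Col4a4 over Col4a3 went the other way, from 0.581 in CTRL (0.473 to 0.663) to 0.703 on day 14 (0.613 to 0.953) and 0.69 on day 42 (0.652 to 0.796). Its ranges overlapped on each day, with differences of 0.19 to 0.28 over the 6 days (adjusted permutation p = 0.000176 on day 14). Those of day 7 and day 35 were 0.10 and 0.11 as differences of medians and were then not called. Col4a5 over Col4a3 differed on day 21 alone (0.10, adjusted permutation p = 0.0318), a call that was lost with medians or without day 21 replicate 8 (adjusted permutation p = 0.0506).

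Per kilobase of exon, the make-up of collagen IV mRNA moved towards Col4a1. The summed RPKM of the 6 genes was 347 ± 47.3 in CTRL, 863 ± 216 on day 14 and 511 ± 111 on day 42. The share of Col4a1 was 39.8 ± 0.819% in CTRL (38.4 to 40.7%), 47.4 ± 1.78% on day 7 (44.6 to 49.5%), 48.6 ± 1.70% on day 14 (46.4 to 51.8%) and 44.2 ± 1.52% on day 42 (42.1 to 46.4%). No BLEO-IPF mouse had a Col4a1 share within the CTRL range. The share of Col4a2 was nearly constant, at 37.5 ± 1.02% in CTRL and 37.1 to 38.9% on the 6 days. Col4a3, Col4a4 and Col4a5 together held 12.1 ± 3.24% on day 14 (7.09 to 15.9%) and 17.9 ± 1.39% on day 42, against 21.4% in CTRL, and Col4a6 0.363 ± 0.147% on day 14. Col4a3 to Col4a5 thus gave a smaller share of the family's mRNA on day 14 although each was higher than in CTRL.

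**Figure D4:**
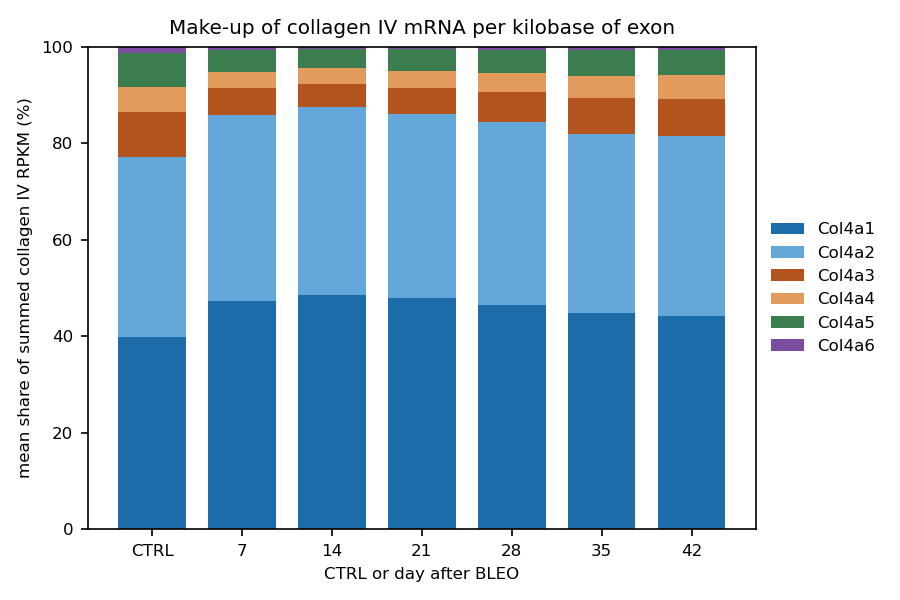
Mean share of each gene in the summed RPKM of the 6 collagen IV genes (stacked, percent) in CTRL and on each day after BLEO. The Col4a1 and Col4a2 segments together reach 77.3% in CTRL, 87.5% on day 14 and 81.5% on day 42.

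The chains also differed in how they varied among mice of 1 group. Deviations of log2 CPM from the group mean were correlated over all 75 mice for the 15 pairs of genes, a step chosen after the values were seen, with permutation of mice within groups (100000 draws) and adjustment over the 15 pairs. All the levels of a mouse share that library's scaling. Col4a1 and Col4a2 had Pearson's r = 0.98 and Spearman's rho = 0.98 (adjusted permutation p = 3e-05 for both, the smallest possible), with r from 0.94 to 1.00 within single groups. Col4a3 and Col4a4 had r = 0.89 and rho = 0.84 (adjusted permutation p = 3e-05 for both), but from 0.31 on day 35 to 0.96 within groups. Col4a3 and Col4a5 had r = 0.83 and rho = 0.80 (adjusted permutation p = 3e-05 for both), from 0.72 to 0.96 within groups. Col4a4 and Col4a5 had r = 0.70 and rho = 0.64 (adjusted permutation p = 3e-05 for both), but from -0.14 on day 35 to 0.93 within groups. Leaving out the 2 mice farthest from the median in the lower-numbered gene of each pair gave r = 0.98, 0.85, 0.77 and 0.60 for these pairs. Mice extreme only in the other gene could stay in.

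Across the 2 networks, Col4a1 and Col4a2 had a positive r with Col4a3, Col4a4 and Col4a5, from 0.05 to 0.48. With Col4a6, r was negative for both. Differences between pairs were not tested. Col4a4 gave the highest cross-network values, with r = 0.48 and rho = 0.49 for Col4a1 (adjusted permutation p = 0.000725 and 0.00025), from 0.00408 to 0.93 within groups, and r = 0.47 and rho = 0.48 for Col4a2 (adjusted permutation p = 0.000879 and 0.000321). Col4a1 and Col4a5 had r = 0.06 and rho = 0.10 (adjusted permutation p = 0.695 and 0.406), and r ran from -0.29 to 0.90 within groups, so no relation holds for all groups. Col4a1 and Col4a3 had r = 0.32 and rho = 0.34 (adjusted permutation p = 0.02 and 0.00865), from -0.33 on day 35 to 0.85 in another group. Col4a1 and Col4a6 had r = -0.39 and rho = -0.43 (adjusted permutation p = 0.00335 and 0.00101), from -0.64 on day 28 to 0.47. Col4a5 and Col4a6, chains of the α5α5α6 trimer that were called in opposite directions on day 14, had r = 0.71 and rho = 0.64 (adjusted permutation p = 3e-05 for both), from -0.10 on day 42 to 0.91. Without the 2 mice farthest in the lower-numbered gene, r was 0.45 and 0.44 for Col4a4 with Col4a1 and Col4a2. It was 0.01, 0.29, -0.39 and 0.64 for the other 4 pairs in the order given.

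**Figure D5:**
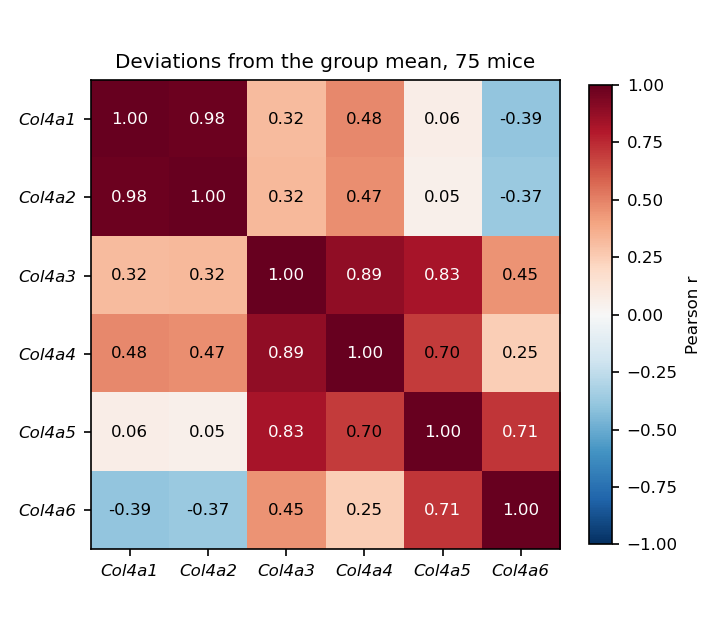
Pearson correlation of log2 CPM deviations from the group mean between collagen IV genes over 75 mice (color scale from -1 to 1). Col4a1 and Col4a2 form 1 block at 0.98 and Col4a3, Col4a4 and Col4a5 another at 0.70 to 0.89. Col4a5 and Col4a6 are at 0.71.

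In 3 of the mice that stood apart, low Col4a3 to Col4a6 went with low alveolar and endothelial marker sums, but not with low transitional epithelial sums. In day 28 replicate 5, Col4a3 was 1.22, Col4a4 0.85, Col4a5 0.95 and Col4a6 1.13 below the group mean in log2 CPM, whereas Col4a1 was 0.07 above it. The log2 summed CPM of alveolar type 1 (AT1) markers was -0.94, of AT2 markers -0.78, of endothelial markers -0.76 and of fibroblast markers 1.05 from the group mean in that mouse. In day 14 replicate 2 the AT1 and endothelial sums were each -0.41 from the mean and in day 14 replicate 3 -0.43 and -0.39, with AT2 sums of -0.45 and -0.74 and fibroblast sums of 0.32 and 0.61. The transitional epithelial sums of the 3 mice were -0.00121, -0.06 and 0.11 from the mean, in the same order. Low AT2 markers did not always go with low chains. In day 28 replicate 1 the AT2 sum was -0.89 from the mean, whereas Col4a3 was 0.63, Col4a4 0.57 and Col4a5 0.23 above it. In that mouse the AT1 and endothelial sums were 0.01 and 0.26 above the mean, and Col4a6 was -0.66 from it. In day 28 replicate 10, low in Col4a1 and Col4a2, the sum of cardiac muscle markers was 3.68 above the mean. In day 21 replicate 8, also low in both genes, that sum was 0.26 above the mean. The fibroblast sums of these mice were -0.45 and -0.61 from the mean, in the same order, and the pericyte sums -0.37 and -0.33. Day 28 replicates 1 and 2, high in Col4a1 and Col4a2, had fibroblast sums 0.75 and 0.02 above the mean. Their pericyte sums were 0.31 and 0.29 above it. The part of cell composition in these values was not tested.

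Over all groups, markers of the cells that make collagen IV moved in both directions. Beside the marker counts below, 32.4% of all genes were higher and 29.9% lower on day 14. The shares on day 28 were 24.1% and 19.2%. Of 12 AT1 markers, 3 were higher and 5 lower on day 14 (median log2FC -0.17), and their summed level was 8031 to 10737 CPM in CTRL, 6029 to 10107 CPM on day 14 and 9492 to 11117 CPM on day 42. Of 13 endothelial markers, 1 was higher and 10 lower on day 14 (median log2FC -0.49), with sums of 6313 to 8273 CPM in CTRL, 3852 to 6098 CPM on day 14 and 4846 to 6923 CPM on day 42. All endothelial sums on day 14 lay below the lowest CTRL sum. Of 10 fibroblast markers, 5 were higher and 3 lower on day 14 (median log2FC 0.17), with sums of 4081 to 4817 CPM in CTRL, 6324 to 16076 CPM on day 14 and 3759 to 4901 CPM on day 42. The day 42 and CTRL fibroblast sums overlapped, with medians of 4276 and 4435 CPM. The fibroblast sum is weighted to fibrillar collagen genes, with median counts of 21251 for Col3a1 and 14328 for Col1a2, against 260 for Pi16. It is thus no measure of fibroblast number. Of 8 transitional epithelial markers, 7 were higher on day 14 (median log2FC 1.01), with sums of 459 to 656 CPM in CTRL and 755 to 1243 CPM on day 14. Of 6 pericyte markers 3 were higher (median log2FC 0.18), of 6 smooth muscle and myofibroblast markers 4 higher and 2 lower (0.59), of 9 AT2 markers 6 lower (-0.77), of 4 mesothelial markers 1 higher (-0.06), of 5 leukocyte markers 1 higher and 1 lower (0.01), and of 5 cardiac markers 1 higher (0.96). On day 28, 4 of 5 cardiac markers were higher (median log2FC 2.16), with sums of 40.3 to 2181 CPM (median 121 CPM) against 63.03 to 262 CPM in CTRL (median 109 CPM). Of these markers only Myh6 and Nppa, both cardiac, were at 0 in any library (6 and 38 of 75). The part of these shifts in the collagen IV values was not tested.

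The genes whose levels were most like those of 3 chains over the 75 mice were named as a description, without a test. Differences between groups enter r over all mice, so r of deviations within groups is given beside it. For Col4a1 they were Fbn1 (fibrillin-1 of microfibrils, r = 0.95), Fndc3b (r = 0.94), Adamts2 (the enzyme that trims fibrillar procollagen, r = 0.94), Col5a2 (a fibrillar collagen V chain, r = 0.94) and Dbn1 (an actin-binding protein, r = 0.93), with r = 0.81 to 0.89 for deviations within groups. For Col4a3 they were Agrn (agrin, a basement membrane proteoglycan, r = 0.81), Ptpre (a tyrosine phosphatase, r = 0.80), Apc (a scaffold of the Wnt pathway, r = 0.78), Lama3 (a laminin chain of epithelial basement membranes, r = 0.78) and Wwtr1 (the Hippo pathway co-activator TAZ, r = 0.78), with r = 0.73 to 0.85 within groups. For Col4a5 they were Plxna1 (a semaphorin receptor, r = 0.78), Agrn (r = 0.78), Spock2 (a proteoglycan that is also on the AT1 marker list, r = 0.76), Pappa2 (a protease of insulin-like growth factor binding proteins, r = 0.74) and Ndnf (a secreted protein, r = 0.73), with r = 0.68 to 0.86 within groups. The genes near Col4a1 had a log2FC of 1.02 to 2.97 on day 14, those near Col4a5 of 0.10 to 1.28 and those near Col4a3 of -0.08 to 0.35, so the first and second ranges overlapped.

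The other structural proteins of basement membranes were mostly higher on day 14. Beside the list counts from here on, 32.4% of all genes were higher and 29.9% lower on day 14. The shares on day 42 were 13.7% and 11.0%. Laminins are the second network of these membranes, and of 11 laminin chains 8 were higher and 3 not called on day 14 (median log2FC 0.54, against 0.01 over all genes), and 3 were higher and 1 lower on day 42 (median 0.15). Lama1, an α chain best known from embryonic basement membranes, went from 2.46 ± 0.927 CPM in CTRL to 33.7 ± 10.8 CPM on day 14 (log2FC 3.76 ± 0.42, adjusted p = 7.27e-12) and was still called on day 42 (log2FC 2.61). Lama2 (log2FC 0.76) and Lamb1 (log2FC 0.74), chains made by mesenchymal and many other cells, were called on day 14 but had log2FC of 0.15 and -0.03 on day 42. Lama4, the α chain of endothelial basement membranes, had a log2FC of 0.00 on day 14 and was the laminin chain that was lower on day 42 (log2FC -0.42, adjusted p = 5.78e-05), which was singled out after its value was seen. By the same edgeR test, Lama4 was also lower on day 7 (log2FC -0.21, adjusted p = 0.0143) and day 35 (log2FC -0.22, adjusted p = 0.00885).

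Of 17 other basement membrane components, 11 were higher and 4 lower on day 14 (median log2FC 0.57), and 3 higher and 2 lower on day 42 (median -0.16). Col15a1, a collagen that links basement membranes to fibrils, went from 17.4 ± 4.67 CPM to 97.5 ± 29.4 CPM (log2FC 2.48, adjusted p = 2.3e-12). Col7a1, of anchoring fibrils, had a log2FC of 2.08 (adjusted p = 4.07e-06) and Col18a1, the source of endostatin, of 1.19 (adjusted p = 8.9e-10). Sparc, a collagen-binding protein needed for collagen IV deposition, went from 1765 ± 150.4 CPM to 4618 ± 637 CPM (log2FC 1.39, adjusted p = 1.9e-18). The 4 lower components, named after their values were seen, were Smoc1 (log2FC -0.85), Frem2 (-0.62), Npnt (nephronectin, an integrin ligand of the alveolar basement membrane, -0.49) and Fbln1 (fibulin-1, -0.43).

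Enzymes and chaperones that modify and export collagens, and not collagen IV alone, were mostly higher on day 14 as well. Of 14 such genes, 11 were higher and 2 lower on day 14 (median log2FC 0.46), and 4 were higher on day 42 (median 0.17). P3h1, a prolyl 3-hydroxylase that acts on fibrillar collagen, had a log2FC of 1.28 (adjusted p = 1.38e-12) and Serpinh1, the collagen chaperone HSP47, of 1.06 (adjusted p = 4.06e-12). Plod1, a lysyl hydroxylase (log2FC 0.80), and Colgalt1, which adds galactose to hydroxylysine (log2FC 0.76), rose less. The 2 lower genes, named after their values were seen, were P3h2 (log2FC -0.70, adjusted p = 5.15e-07), the prolyl 3-hydroxylase known to act on collagen IV, and P4ha1 (log2FC -0.28, adjusted p = 0.00199), a subunit of prolyl 4-hydroxylase.

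Of 11 genes of crosslinking and breakdown, 9 were higher on day 14 (median log2FC 1.68) and 5 on day 42 (median 0.83). Mmp12, the macrophage elastase, went from 6.68 ± 3.15 CPM to 229 ± 127 CPM (log2FC 5.09, adjusted p = 1.13e-15), and Mmp2 (log2FC 2.34) and its activator Mmp14 (log2FC 2.59) were also among the highest. Lox, the lysyl oxidase of fibrillar collagen, had a log2FC of 3.06 on day 14 (adjusted p = 6.34e-12). Pxdn, the peroxidase that forms the sulfilimine bond of collagen IV, had a log2FC of 0.18 on day 14 (adjusted p = 0.0508), which was singled out after its value was seen.

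Of 7 receptor genes, 4 were higher and 1 lower on day 14 (median log2FC 0.24), beside 32.4% and 29.9% of all genes. The lower gene was Itga1, the α1 subunit of the integrin that binds collagen IV, which went from 415 ± 33.7 CPM to 264 ± 68.6 CPM (log2FC -0.65, adjusted p = 1.18e-07) and had a log2FC of -0.25 on day 42 (adjusted p = 0.117). Itgb1, the β subunit it pairs with, was higher on day 14 (log2FC 0.30, adjusted p = 2.48e-05), as were Itgav (log2FC 0.68) and Itgb3 (log2FC 0.70), the subunits of the αvβ3 integrin.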

How the data were processed

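PolyA RNA of 75 lungs (7 groups) was sequenced by the authors as directional libraries. Per the submitters' processing notes, reads were aligned with STAR 2.7.0f to GRCm38. The deposited file holds raw read counts per Ensembl gene, and the counting program and its strand setting are not given in the sources used here. All 55536 gene identifiers were matched to GENCODE vM21 for symbols, exon length and position. Every column was assigned to 1 mouse by its library name.

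Counts were filtered (filterByExpr, 16221 genes kept), scaled by trimmed means and tested with edgeR 4.0.16 (quasi-likelihood, all 7 groups in 1 fit, R 4.3.3). p-values were adjusted by Benjamini-Hochberg over all genes tested in each of 12 comparisons, with a threshold of 0.05. Levels are scaled CPM and RPKM over exon length. The scripts were tested on simulated data. Chain ratios used log2 counts plus 0.5 and permutation tests (scipy 1.17.1). No batch is named in the labels, and no pair of libraries in a group agreed within counting noise. The labels do not say more of the replicates than that each is 1 lung, so p-values measure the spread between mice of 1 study. Total counts of 9240291 to 14665247 set the precision.

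Genes were named as the 6 chains, up to 4 genes of each pathway list with the largest change on day 14 among those called, and the 5 genes most correlated with Col4a1, Col4a3 and Col4a5 at a mean log2 CPM above 1. 1 gene that this rule names is not reported here. Any other gene is said to have been chosen after its value was seen. The 6 genes and the lists were chosen with earlier results of these data known. Lists were the laminin chains, other basement membrane components, collagen IV folding, modification and export, crosslinking and breakdown, receptors, and markers of AT1, AT2, transitional epithelial, endothelial, fibroblast, pericyte, smooth muscle, mesothelial, leukocyte and cardiac cells. Alternatives were DESeq2 1.42.0, other scalings and filters, a replicate block, 2-group fits and leaving out single mice, and for ratios a pseudocount of 5 and medians.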

Additional observations from a re-analysis of the deposited data

Results flagged for a closer look

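The fold change against CTRL differed between days for several chains, by the test of the days against each other. From day 7 to day 14 the log2FC was 0.72 for Col4a1, 0.71 for Col4a2, 0.50 for Col4a3, 0.57 for Col4a4 and 0.48 for Col4a5. From day 14 to day 42 it was -0.89 for Col4a1, -0.83 for Col4a2 and -0.34 for Col4a5. The fold changes against CTRL share the CTRL mice, whereas the values given here compare the means of BLEO groups alone. The day 14 mice enter both steps. In the 18 sets of 7 to 10 mice (6 genes in CTRL, day 7 and day 42), no mouse stood far enough from the rest to be singled out. The groups of 12 mice, days 14 to 35, were too large for that test and were not covered by it, and the day 14 and day 28 mice whose marker sums are given above belong to them.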

How the results depend on the processing

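Under the 7 other ways of counting calls, the number of collagen IV genes called changed by over 1.5 times once, from 3 to 5 higher on day 35 when CTRL and day 35 were fitted alone, which added Col4a3 (adjusted p = 0.0106) and Col4a5 (adjusted p = 0.0409). Such a fit also called Col4a3 on day 42 (adjusted p = 0.0469). No call of a chain changed direction under any alternative. Col4a3 on day 21 lost its call with no filter on low counts, with a minimum of 10 counts in every mouse, with the replicate block and by DESeq2 (adjusted p of 0.0508 to 0.0755). Replicate numbers are shared between groups. The 204 same-numbered pairs had a median correlation of 0.01 (-0.54 to 0.57), beside 0.002 for other pairs. No general pairing by number was thus seen, but a median cannot show whether some numbers share a block. With the replicate block the day 21 log2FC of Col4a3 was 0.28 (adjusted p = 0.0656) and the day 28 log2FC of Col4a5 was 0.22 (adjusted p = 0.0753), and the block moved no other call of the 6 genes.

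With medians, Col4a4 over Col4a3 differed by 0.10 on day 7 and 0.11 on day 35, and Col4a5 over Col4a3 by 0.042 on day 21, none of them called. Without 1 of 8 mice in turn, chosen after the values were seen, the day 21 difference of Col4a5 over Col4a3 ran from 0.093 to 0.103. Counts over all genes between neighbouring days moved most, from 0 to 304 on day 21 against day 14, 1 to 371 on day 28 against day 21 and 0 to 327 on day 35 against day 28, and genes lower on day 42 than CTRL from 1165 to 2870. Depth limits Col4a6 most, with 108 counts in 1 mouse.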
